A study of Mus musculus with 6 samples.

Results

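The genes described here encode the SR proteins, the heterogeneous nuclear ribonucleoproteins (hnRNPs) and the RNA-binding regulators that set splicing in heart muscle. They were chosen by symbol in the platform annotation: every gene whose name starts with Srsf and a digit or with Hnrnp, together with Rbm20, Rbm24, Rbfox1, Rbfox2, Mbnl1, Mbnl2, Celf1, Celf2, Ptbp1, Ptbp2, Qk, Tra2a and Tra2b. In all 42 of the 23185 genes with a symbol on the array met this rule, namely 10 Srsf genes, 2 Tra2 genes, 19 hnRNP genes and 11 regulators of heart and muscle. The row of Hnrnpa1l2-ps2 was left out because its symbol marks a pseudogene, and Srsf7 and Hnrnpa1 were not analysed here.

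SR proteins carry RNA recognition motifs and a tail rich in arginine and serine, bind enhancers in exons and recruit the spliceosome to nearby splice sites. The hnRNPs coat nascent transcripts and often, though not always, act against exon inclusion at the same sites, so the balance of both families helps to decide which exons a transcript keeps. Heart muscle adds its own regulators on top: RBM20 represses exons of titin, RBFOX, MBNL and QKI proteins favour exon patterns of mature muscle, and CELF and PTB proteins are linked to fetal or non-muscle patterns. Many SR and hnRNP genes also splice a stop-containing exon into their own transcripts, which limits their level.

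Total RNA from hearts of FVB mice, an inbred strain, was measured on 6 Affymetrix arrays, 3 wild type and 3 irisin knockout. The knockout line came from zygotes injected with Cas9 messenger RNA and 5 guide RNAs, so the deletion was not restricted to the heart, and the controls were littermates. All animals had eaten standard chow with 10% fat for 24 weeks, and the labels give neither sex nor founder number. The material is called cardiomyocytes in some label fields and myocardium in another. Nothing in the labels says outright that the 3 arrays of a genotype hold different mice, so p-values measure the spread between arrays, which may be technical. Values are log2 expression as deposited, differences are knockout minus wild type on that scale, and a gene is said to rise or fall where limma's adjusted p was below 0.05.

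Array medians lay between 2.13 and 2.28 log2 units. Fndc5, the gene that encodes irisin's precursor, gave 8.42, 8.40 and 7.83 on wild type arrays 1, 2 and 3 and 7.68, 5.49 and 5.45 on the knockout arrays (-2.01, SE 0.54, limma adjusted p = 0.0359). Replicate 1 of the knockout thus stood near wild type, and counts are also given without that array. Of all genes tested, 16.6% were called in either direction, 10.4% as higher and 6.18% as lower in the knockout. The 8 cardiomyocyte markers had a mean level of 10.86 to 11.38 on the wild type arrays and 11.21 to 11.29 on the knockout arrays, with a median difference of -0.11. Of these Pln, the phospholamban gene, was called higher (limma adjusted p = 0.0274), a call lost without any 1 knockout array. After cyclic loess 3 of the 8 were called lower and their median difference was -0.60. Markers of other heart cells were also measured and some differed: the 5 smooth muscle markers averaged 6.39 to 8.62 in wild type and 4.57 to 5.11 in the knockout, with all 5 called lower (2 without knockout replicate 2, 3 without knockout replicate 1 or 3). The 6 fibroblast markers averaged 6.81 to 7.60 against 6.25 to 6.50, with 3 called lower, and the 5 endothelial markers 7.61 to 7.79 against 7.10 to 7.40, with 2 called lower (1 without knockout replicate 1 or 2). Averages of the 5 macrophage markers (4.64 to 4.81 and 4.66 to 4.72) and the 5 skeletal muscle markers (4.33 to 4.70 and 4.53 to 4.63) overlapped. The 2 red blood cell markers stood at 5.07 in wild type replicate 2 and at 2.59 to 3.15 elsewhere. Immediate early genes averaged 3.59 to 5.17 over the wild type arrays and 3.45 to 3.46 over the knockout arrays (4 of 12 called lower, 8 without wild type replicate 2, 2 without wild type replicate 3 or knockout replicate 1, and 1 without knockout replicate 2 or 3). Heat shock genes averaged 5.09 to 5.98 and 4.76 to 4.95, with 2 of 9 called lower in limma. Without wild type replicate 1 or knockout replicate 1 that count was 1, and leaving out wild type array 3, knockout array 2 or knockout array 3 gave 0, with 2 at an unadjusted p under 0.05. No marker of these lists was at 0, the lowest value being 0.70. The part of these differences in the results on splicing regulators was not tested. If the material held several cell types, as tissue does, fewer cells of a type and less RNA per cell cannot be told apart.

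On the deposited values splicing regulators changed in both directions: the SR and Tra2 genes that passed all fell, and the heart and muscle regulators that passed all rose. The rises of these regulators depended on the scaling. After quantile normalization 1 regulator was higher and 1 lower. Cyclic loess gave 0 higher (2 at an unadjusted p under 0.05 in limma) and 3 lower. Centring each array on its median gave 4 higher and 0 lower. Of the 42 genes, 15 fell and 6 rose in the knockout, while 21 did not pass. Thus 35.7% of them were called lower, against 6.18% of all genes, and 14.3% higher, against 10.4% of all genes. The groups did not overlap for 19 members lower in the knockout and 9 higher, where 17% and 17.2% of all genes were apart in those directions. They overlapped for the other 14 members, while 34.1% of all genes were apart in either direction. The 15 that fell were 6 Srsf genes, both Tra2 genes and 7 hnRNP genes, and the 6 that rose were 3 hnRNP genes and the heart and muscle regulators Qk, Rbfox1 and Mbnl1. The median difference over the 42 genes was -0.16, beside -0.05 over all genes.

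These genes are mostly bright: 36 of the 42 lie in the brightest 20% of all genes by mean level, and 25 in the brightest 10%. Direction varied with level: the median difference of all genes was 0.27 in the brightest 10%, where 34.5% of genes were called higher and 11.1% lower. Of the 25 members among them 5 rose and 9 fell (20.0% and 36.0%), with a median difference of -0.12. The balance of the calls also depended on the scaling of the arrays. After quantile normalization 1 member rose and 17 fell, after cyclic loess normalization, which removes differences that depend on level, 0 rose and 19 fell, and after centring each array on its median 7 rose and 9 fell. With the loess scaling 4 members were higher at an unadjusted p under 0.05 in limma. All 15 genes that fell on the deposited values were also called lower after quantile and loess normalization, and 9 of them after centring. Without wild type replicate 1, 2 or 3 the members that rose numbered 5, 3 and 3 and those that fell 13, 8 and 7. Without knockout replicate 1, 2 or 3 they numbered 1, 1 and 2, and 6, 6 and 9.

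**Figure D1:**
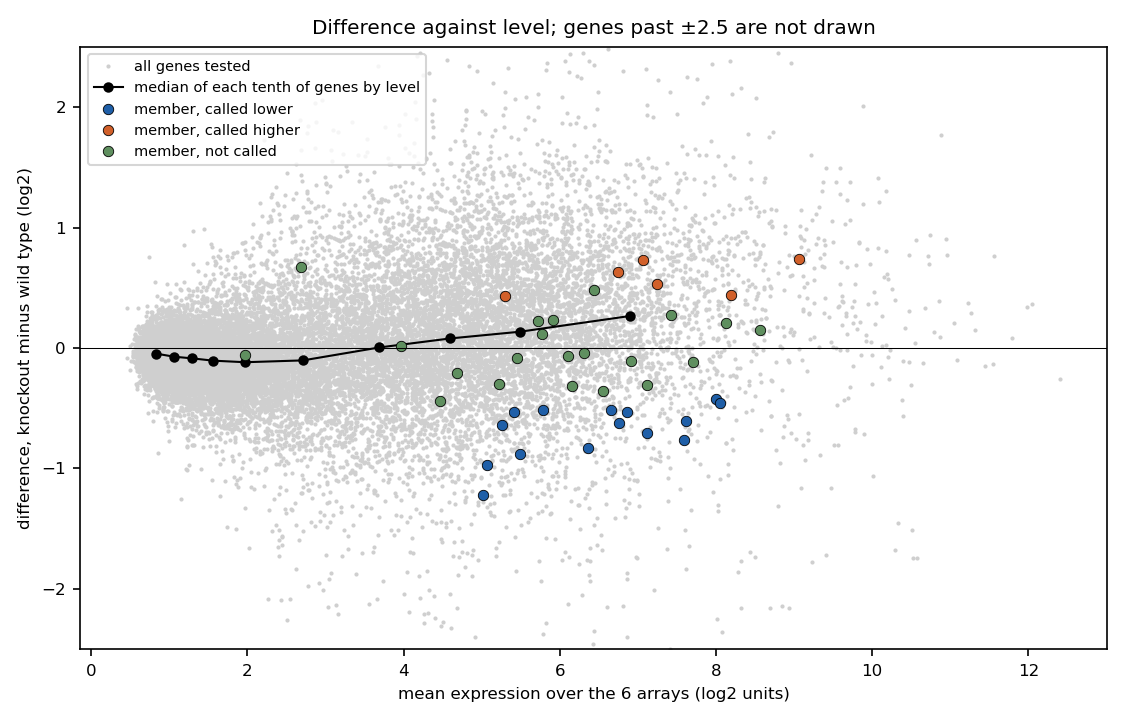
Difference between knockout and wild type means (vertical axis, log2) against mean expression over the 6 arrays (horizontal axis, log2 units); grey points are all genes tested, coloured points the 42 splicing regulators, and the black line joins the medians of 10 equal groups of genes by level; genes beyond the vertical axis are not drawn. The median of all genes rises to 0.27 in the brightest 10%, and the 42 members spread from -1.22 to 0.74, with 15 called lower and 6 called higher.

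The sequences before the start sites of 4 members are given as examples, which need not stand for the promoters of the set. RefSeq's promoter table (build GRCm38.p6) matched 38 of the 42 members. Shown are the genes of lowest p in each direction that have 1 start in that table: Srsf9 and Hnrnpdl, which fell, and Qk and Hnrnpul1, which rose. Each run holds the 250 bases before the start, 5′ to 3′ on the gene's strand, at chr5:115326927-115327176 on the plus strand, chr5:100039223-100039472 on the minus strand, chr17:10319362-10319611 on the minus strand and chr7:25754760-25755009 on the minus strand. Capitals mark, on either strand, the letters CCAAT (the box of that name), GGGCGG (a GC box), CCGGAA (an ETS site), TGACG (a cyclic AMP response half-site), CACGTG (an E box) or TATAAA (bound by the TBP subunit of TFIID), none of which contains another.
Srsf9: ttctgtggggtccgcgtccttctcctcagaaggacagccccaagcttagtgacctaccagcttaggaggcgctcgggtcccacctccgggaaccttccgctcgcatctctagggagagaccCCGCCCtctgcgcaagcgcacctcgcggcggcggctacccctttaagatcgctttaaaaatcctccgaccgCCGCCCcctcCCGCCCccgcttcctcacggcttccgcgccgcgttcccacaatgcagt
Hnrnpdl: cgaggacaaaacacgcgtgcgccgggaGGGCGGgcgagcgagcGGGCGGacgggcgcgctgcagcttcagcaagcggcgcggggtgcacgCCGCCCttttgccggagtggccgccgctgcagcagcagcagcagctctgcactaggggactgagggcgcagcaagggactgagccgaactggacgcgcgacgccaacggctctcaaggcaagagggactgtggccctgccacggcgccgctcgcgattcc
Qk: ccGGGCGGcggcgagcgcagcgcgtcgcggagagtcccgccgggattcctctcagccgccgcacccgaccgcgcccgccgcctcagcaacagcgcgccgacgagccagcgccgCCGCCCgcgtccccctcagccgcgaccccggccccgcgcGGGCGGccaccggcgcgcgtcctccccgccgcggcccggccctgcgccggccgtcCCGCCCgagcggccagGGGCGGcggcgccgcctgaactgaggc
Hnrnpul1: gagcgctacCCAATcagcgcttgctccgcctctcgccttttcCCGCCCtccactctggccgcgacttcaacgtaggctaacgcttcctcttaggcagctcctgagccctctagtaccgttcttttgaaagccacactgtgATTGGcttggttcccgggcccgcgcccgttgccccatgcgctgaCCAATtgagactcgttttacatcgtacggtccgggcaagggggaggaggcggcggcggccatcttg

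All 4 runs hold GGGCGG, 3 times each in Srsf9 and Hnrnpdl, 5 times in Qk and 1 time in Hnrnpul1, and Hnrnpul1 also holds CCAAT 3 times. They are rich in G and C, from 61.6% in Hnrnpul1 to 84.8% in Qk, and none of them holds the other 4 motifs. Over the 56 starts of the 38 matched members, GGGCGG was present at 71.4%, compared with 32.7% of the 32851 starts in the table. TGACG was present at 42.9% of the members' starts (17.8% of all), CCAAT at 41.1% (33.8%), CCGGAA at 26.8% (12.0%), CACGTG at 8.93% (6.02%) and TATAAA at 8.93% (12.4%). Counting each gene 1 time, GGGCGG lay at 14 of the 15 genes that fell, 4 of the 6 that rose and 12 of the 17 matched genes that did not pass. TGACG lay at 10, 2 and 8 of these genes, CCAAT at 5, 4 and 10, CCGGAA at 4, 0 and 7, and both CACGTG and TATAAA at 1, 1 and 3. Some genes have several starts close together, which share sequence, and such matches are descriptions of letters, not of binding.

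SR proteins and their relatives fell or did not pass. Of the 10 Srsf genes 6 fell and 4 did not pass, both Tra2 genes fell, and none of the 12 rose in limma at the adjusted threshold (1 at an unadjusted p under 0.05). Called lower were thus 66.7% of the 12, against 6.18% of all genes and 11.1% of the brightest 10%. Called higher were 10.4% of all genes. The median difference of the 12 was -0.52. Of their differences 11 were negative, while 13246 of the 23185 differences over all genes were negative. On the scaled values 8 of the 12 fell after quantile or loess normalization and 6 after centring, and 4 fell without knockout replicate 1, 5 without knockout replicate 2 or wild type replicate 2 or 3.

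Srsf9 (SRp30c), a small SR protein that acts on alternative splice site choice, had the largest fall. It gave 5.64, 5.63 and 5.60 on wild type arrays 1, 2 and 3 and 4.28, 4.14 and 4.79 on the knockout arrays. The wild type arrays lay within a few hundredths of each other, and every knockout array lay far below them. The difference was -1.22 (SE 0.17, 95% interval -1.61 to -0.82), a 2.33-fold lower level with a limma adjusted p of 0.00273. Srsf11 (p54), an SR protein that interacts with early spliceosome factors, read 5.47, 5.61 and 5.59 in wild type and 4.69, 4.44 and 4.63 in the knockout. It was 1.96-fold lower (SE 0.12 on the log2 scale), with the lowest adjusted p of the 42 genes, 0.00161 in limma. Both calls held in each of the 17 other settings, which include scalings, variance models and arrays left out.

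Srsf10 (SRp38), which turns into a repressor of splicing when it is dephosphorylated, stood at 5.85, 6.05 and 5.87 in wild type and 5.24, 4.53 and 5.38 in the knockout. Replicate 2 of the knockout was the lowest by a wide margin, but the groups did not overlap, and the mean was 1.84-fold lower (limma adjusted p = 0.0248). Srsf5 (SRp40) was 7.65, 8.02 and 8.25 against 7.16, 7.05 and 7.41, with wild type replicate 1 closest to the knockout. Its fall was 1.70-fold (SE 0.18, adjusted p = 0.0206). Srsf5 belongs with Srsf4 (SRp75) and Srsf6 (SRp55) to the SR proteins that have a pair of RNA recognition motifs and long arginine-serine tails. Srsf4 read 6.90, 6.98 and 6.86 in wild type and 6.24, 6.43 and 6.52 in the knockout, and Srsf6 read 5.98, 6.12 and 6.02 against 5.47, 5.61 and 5.50. Both fell by a similar amount, 0.52 and 0.51 on the log2 scale (adjusted p = 0.0217 and 0.0164 in limma). With 1 array left out, these 4 calls were lost in 2 to 3 of 6 fits, at adjusted p up to 0.0883, and that of Srsf4 also after centring.

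The Tra2 proteins are SR-like activators that bind purine-rich exon enhancers. Tra2b read 7.12, 6.92 and 7.15 in wild type and 6.43, 6.35 and 6.54 in the knockout, and Tra2a read 5.55, 5.78 and 5.71 against 5.33, 5.04 and 5.09. The knockout values of each gene lay below all of its wild type values. Tra2b was 1.54-fold lower (SE 0.12, limma adjusted p = 0.00984) and kept its call in every fit without 1 array, at an adjusted p of at most 0.0499. Tra2a was 1.44-fold lower (adjusted p = 0.0259), and that call was lost in 4 of the 6 such fits and after centring.

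The 4 Srsf genes that did not pass include the best known of the family. Srsf1 (ASF/SF2), the founding SR protein, read 6.18, 6.54 and 6.27 in wild type and 6.30, 6.19 and 6.39 in the knockout. The groups overlapped and the difference of -0.04 had a 95% interval of -0.34 to 0.27. Srsf2 (SC35), the marker protein of nuclear speckles, read 7.20, 7.35 and 7.32 against 7.66, 7.44 and 7.59, the one Srsf gene whose knockout values all lay above wild type (0.27, adjusted p = 0.168). That sign turned to -0.03 after loess normalization. Srsf3 (SRp20), the smallest family member, read 4.52, 5.08 and 4.47 against 4.17, 4.39 and 4.18 (-0.44, adjusted p = 0.137), with no overlap of the groups. Srsf12 was dim on every array, between 1.72 and 2.21, where a value cannot be told from background.

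**Figure D2:**
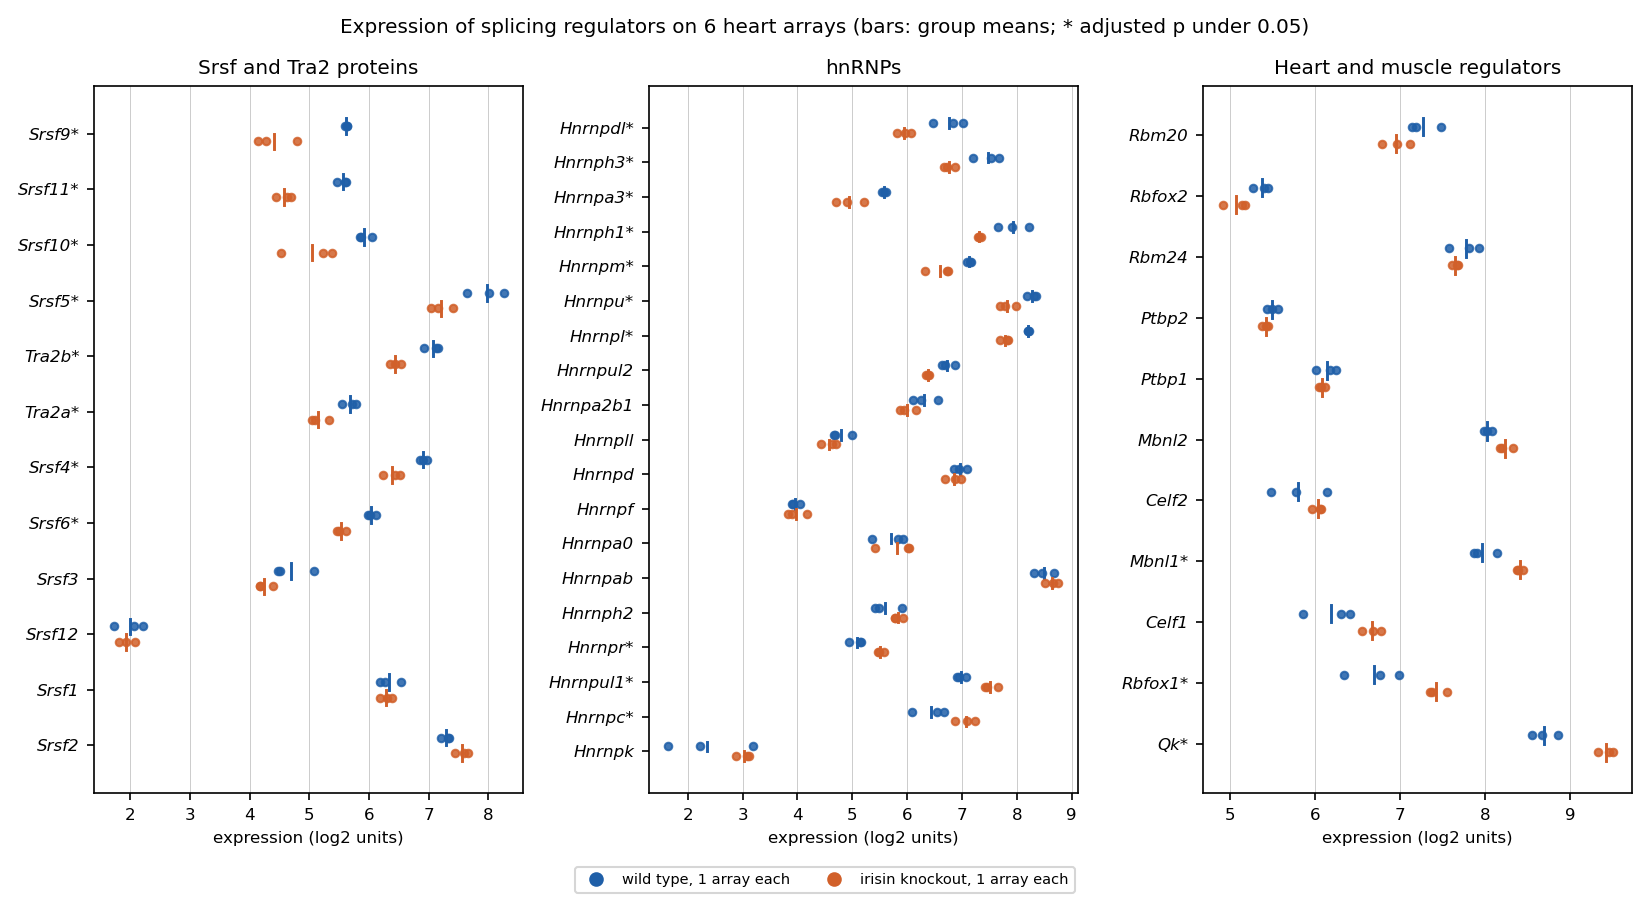
Deposited log2 expression of the 42 splicing regulators on each array, with wild type arrays in blue, irisin knockout arrays in orange, and a bar at each group mean; genes are ordered by their difference within a panel, and an asterisk marks an adjusted p under 0.05. The knockout points of Srsf9 (4.14 to 4.79) lie far below its wild type points (5.60 to 5.64), and those of Qk (9.33 to 9.50) above them (8.55 to 8.85).

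The hnRNP genes included both falls and rises. Of 19 genes 7 fell, 3 rose and 9 did not pass, with a median difference of -0.20. Called lower were 36.8%, against 6.18% of all genes and 11.1% of the brightest 10%. Called higher were 15.8%, against 10.4% of all genes and 34.5% of the brightest 10%. After quantile normalization 8 fell and 0 rose at the adjusted threshold of limma (3 at an unadjusted p under 0.05), and after loess normalization 8 and 0 (2 unadjusted). Centring gave 3 of each. Without wild type replicate 1, 2 or 3 the falls numbered 5, 3 and 2 and the rises 3, 1 and 0. Without knockout replicate 1, 2 or 3 they numbered 2, 1 and 3, and 0, 0 and 1, with 3 higher at an unadjusted p under 0.05 in limma in each fit that gave 0.

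Hnrnpdl, a relative of the AU-rich element binding protein hnRNP D, fell most. It read 6.47, 6.83 and 7.02 in wild type and 5.96, 5.81 and 6.06 in the knockout, 1.78-fold lower (SE 0.16, limma adjusted p = 0.00969), and kept its call in all 17 other settings. The closely related Hnrnpd read 6.94, 7.09 and 6.86 against 6.69, 6.88 and 6.99, with overlapping groups and a difference of -0.11 (95% interval -0.40 to 0.19). Within the F and H proteins, which bind G-rich runs, Hnrnph1 and Hnrnph3 fell. Hnrnph3 stood at 7.20, 7.68 and 7.52 in wild type and 6.74, 6.68 and 6.88 in the knockout (1.63-fold lower, adjusted p = 0.0136). Hnrnph1 stood at 7.65, 8.22 and 7.91 against 7.35, 7.32 and 7.29 (1.52-fold lower, adjusted p = 0.0304). In both genes wild type replicate 1 was the lowest of its group and the knockout arrays were close together. The Hnrnph1 call was lost after centring and in 5 of the 6 fits without 1 array.

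Hnrnpa3, of the A and B group of hnRNPs, read 5.55, 5.58 and 5.61 in wild type and 5.22, 4.70 and 4.90 in the knockout (1.56-fold lower, limma adjusted p = 0.0210). The core A and B partner Hnrnpa2b1 read 6.11, 6.56 and 6.26 against 5.87, 5.94 and 6.16, and did not pass (-0.32, adjusted p = 0.208). Hnrnpl, which binds repeats of C and A, was nearly constant in wild type at 8.22, 8.20 and 8.21 and stood at 7.69, 7.83 and 7.83 in the knockout (1.34-fold lower, adjusted p = 0.0319). Hnrnpm, which binds stretches rich in G and U, was 7.10, 7.14 and 7.16 against 6.33, 6.74 and 6.73 (1.45-fold lower, adjusted p = 0.0350). Hnrnpu (SAF-A), a scaffold protein that binds chromatin-associated RNA and is needed for splicing in mouse heart, was 8.18, 8.34 and 8.32 against 7.70, 7.79 and 7.98 (1.37-fold lower, adjusted p = 0.0384). Every knockout array lay below every wild type array in these 4 called genes. The falls of Hnrnpl, Hnrnpm and Hnrnpu did not pass after centring and were larger after quantile or loess normalization. Each of the 6 fits without 1 array lost the calls of Hnrnpl and Hnrnpm, and 4 of them that of Hnrnpu. Hnrnpul2, a relative of Hnrnpu, read 6.64, 6.70 and 6.87 against 6.41, 6.34 and 6.38 without overlap and did not pass (-0.36, adjusted p = 0.0723). After quantile and loess normalization Hnrnpul2 was called lower (-0.56 and -0.60, limma adjusted p = 0.0213 and 0.0171).

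The 3 hnRNP genes that rose were Hnrnpc, Hnrnpul1 and Hnrnpr. Hnrnpc, which binds uridine tracts and keeps cryptic exons out of transcripts, read 6.67, 6.55 and 6.09 in wild type and 6.88, 7.24 and 7.08 in the knockout (1.55-fold higher, limma adjusted p = 0.0425). Hnrnpul1, a relative of Hnrnpu that also acts in DNA repair, read 7.08, 6.95 and 6.92 against 7.66, 7.47 and 7.42 (1.45-fold higher, adjusted p = 0.0186). Hnrnpr read 5.14, 4.94 and 5.16 against 5.58, 5.48 and 5.48 (1.35-fold higher, adjusted p = 0.0395). The groups of all 3 genes were apart on the deposited values, but none of the 3 passed after quantile or loess normalization, where the differences shrank to between 0.25 and 0.42. Hnrnpr lost its call in all 6 fits without 1 array (adjusted p up to 0.133), Hnrnpc in 5 (up to 0.154) and Hnrnpul1 in 3 (up to 0.0769). The other 6 hnRNP genes that did not pass were Hnrnpa0, Hnrnpab, Hnrnpf, Hnrnph2, Hnrnpk and Hnrnpll, with overlapping groups and differences from -0.20 to 0.68. Hnrnpk gave the widest spread in wild type, 3.19, 1.64 and 2.22, against 2.88, 3.08 and 3.12 in the knockout.

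**Figure D3:**
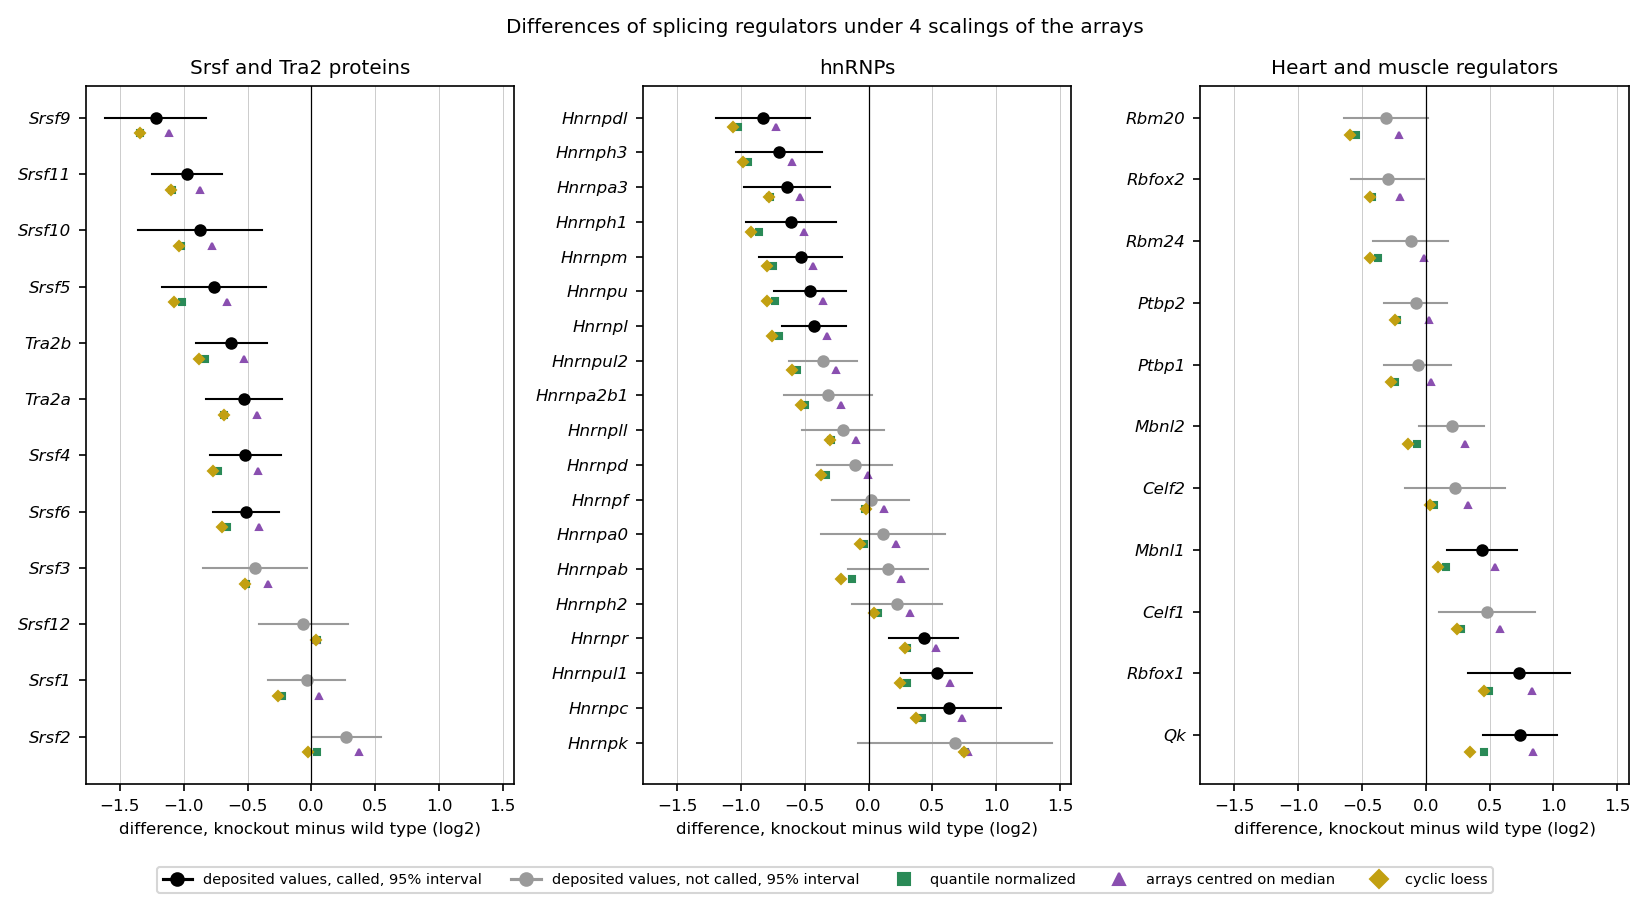
Difference between knockout and wild type for each of the 42 genes (horizontal axis, log2); circles with lines are the deposited values with their 95% intervals, black where the adjusted p was under 0.05 and grey elsewhere, and the small symbols below are the same differences after quantile normalization, centring on the array median and cyclic loess. For Mbnl1 the difference goes from 0.44 on the deposited values to 0.09 after cyclic loess, while Srsf11 stays between -1.10 and -0.87.

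Among the 11 heart and muscle regulators Qk, Rbfox1 and Mbnl1 rose and 8 did not pass. Called higher were thus 27.3% of them, less than the 34.5% of all genes in the brightest 10%, where 8 of the 11 lie, and near the 25.5% of the next 10%, which holds the other 3. None fell in limma at the adjusted threshold on the deposited values (1 at an unadjusted p under 0.05), and the median difference was 0.20. The group's direction depended on scaling: the median turned to -0.07 after quantile normalization, with 1 gene higher and 1 lower, and to -0.14 after loess, with 0 higher (2 at an unadjusted p under 0.05) and 3 lower. After centring 4 rose. Without any 1 knockout array only Qk kept its call.

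Qk encodes QKI, a STAR-family RNA-binding protein that controls exons of sarcomere and cytoskeleton genes in muscle. It read 8.85, 8.67 and 8.55 in wild type and 9.50, 9.33 and 9.46 in the knockout, a difference of 0.74 (SE 0.13, 95% interval 0.45 to 1.03). This 1.67-fold rise had a limma adjusted p of 0.00595, stayed called in each fit without 1 array (adjusted p at most 0.0316), and did not pass after loess normalization (0.34, adjusted p = 0.0894). Rbfox1, the family member of muscle and neurons, read 6.77, 6.98 and 6.34 in wild type and 7.55, 7.35 and 7.38 in the knockout. Its 1.66-fold rise (SE 0.17, adjusted p = 0.0226) did not pass after quantile (0.50, adjusted p = 0.0827) or loess normalization (0.45, adjusted p = 0.0966), nor without any 1 knockout array (up to 0.0886). Its widely expressed paralogue Rbfox2 stood at 5.27, 5.45 and 5.40 in wild type and 4.91, 5.17 and 5.14 in the knockout. The knockout values of Rbfox2 were all below wild type, but the difference of -0.30 did not pass (adjusted p = 0.150). Rbfox2 was called lower after loess normalization (-0.44, limma adjusted p = 0.0467) but not after quantile normalization (-0.42, adjusted p = 0.0572).

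Mbnl1, the muscleblind protein that is trapped by repeat RNA in myotonic dystrophy, stood at 7.87, 7.90 and 8.14 in wild type and 8.38, 8.45 and 8.39 in the knockout. It rose 1.35-fold (limma adjusted p = 0.0403), a call lost in 5 of the 6 fits without 1 array and after quantile (0.15, adjusted p = 0.540) or loess normalization. Mbnl2 was 8.02, 8.08 and 7.99 against 8.18, 8.19 and 8.33, with no overlap but no call (0.20, adjusted p = 0.273), and its sign turned to -0.07 and -0.14 after these scalings. The CELF proteins oppose MBNL proteins at many exons of the developing heart. Celf1 read 6.31, 6.41 and 5.86 against 6.78, 6.69 and 6.55 (0.48, adjusted p = 0.0856), and passed only after centring (adjusted p = 0.0470). Celf2 read 5.78, 5.48 and 6.15 against 5.96, 6.08 and 6.06, and the groups overlapped (0.23, 95% interval -0.16 to 0.62).

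Rbm20, the heart and muscle protein whose mutations cause dilated cardiomyopathy through titin missplicing, read 7.14, 7.48 and 7.18 in wild type and 6.78, 6.97 and 7.12 in the knockout. The knockout values were lower without overlap, yet by a narrow margin, and the difference of -0.31 did not pass (95% interval -0.64 to 0.02, limma adjusted p = 0.194). After quantile and loess normalization Rbm20 was called lower (-0.54 and -0.59, adjusted p = 0.0458 and 0.0257). Rbm24, a muscle protein needed for sarcomere assembly, read 7.93, 7.81 and 7.57 against 7.61, 7.68 and 7.67 with overlap (-0.12, 95% interval -0.41 to 0.17), and passed as lower after loess normalization (adjusted p = 0.0314). The pyrimidine tract binding proteins repress muscle and neuronal exons in other tissues. Ptbp1 read 6.24, 6.01 and 6.17 against 6.12, 6.08 and 6.04, and Ptbp2 read 5.43, 5.57 and 5.49 against 5.45, 5.42 and 5.38. Their differences of -0.06 and -0.08 had 95% intervals of -0.33 to 0.20 and -0.33 to 0.17, and both turned above 0 after centring (0.04 and 0.02).

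The median SD over the 42 genes was 0.14 in wild type and 0.12 in the knockout. Relative to each gene's wild type mean, the genes called lower had medians of -0.07, 0.06 and 0.03 on wild type replicates 1, 2 and 3 and of -0.68, -0.71 and -0.56 on the knockout replicates. Those called higher had medians of 0.08, -0.03 and -0.10 and of 0.59, 0.56 and 0.54. For 11 of the 15 genes that fell, wild type replicate 1 was the wild type array closest to the knockout. Among the knockout arrays replicate 3 was the farthest from wild type for 1 of the 15, replicate 1 for 5 and replicate 2 for 9. Knockout replicate 1, which kept Fndc5 signal, did not lie closer to wild type than replicate 3 in these medians. Genes on which that array resembled wild type were less likely to be called. Over all 42 members the medians on knockout replicates 1, 2 and 3 were -0.28, -0.17 and -0.15.

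Ratios of related genes on the same array do not depend on a scaling that is the same for all genes of that array. Of 12 fixed pairs 10 could be formed, and 5 of them had groups that did not overlap. Among all single genes 34.1% were apart in either direction. The share among other pairs of genes was not computed, so this count is a description only. The log2 ratio of Rbfox1 to Rbfox2 read 1.50, 1.53 and 0.93 in wild type and 2.64, 2.18 and 2.23 in the knockout, a shift of 1.03 toward Rbfox1. For Hnrnpd over Hnrnpdl the ratio was 0.47, 0.26 and -0.16 against 0.73, 1.07 and 0.93, a shift of 0.72. For Hnrnph1 over Hnrnph2 it was 1.73, 2.74 and 2.49 against 1.56, 1.38 and 1.52, a shift of -0.83, so both hnRNP pairs moved away from the gene that fell. Srsf2 over Srsf1 shifted by 0.31 and Hnrnpk over Hnrnpl by 1.10, but Hnrnpk is so dim in wild type that the size of its shift cannot be read. Each of these 5 had a two-sided exact permutation p of 0.1, the smallest that 3 arrays against 3 allow, and 0.2 after adjustment over the 10 pairs. The groups overlapped for Mbnl1 over Mbnl2 (0.23), Celf1 over Celf2 (0.25), Rbm20 over Rbm24 (-0.19), Tra2a over Tra2b (0.10) and Ptbp1 over Ptbp2 (0.02), with exact permutation p from 0.2 to 1.

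**Figure D4:**
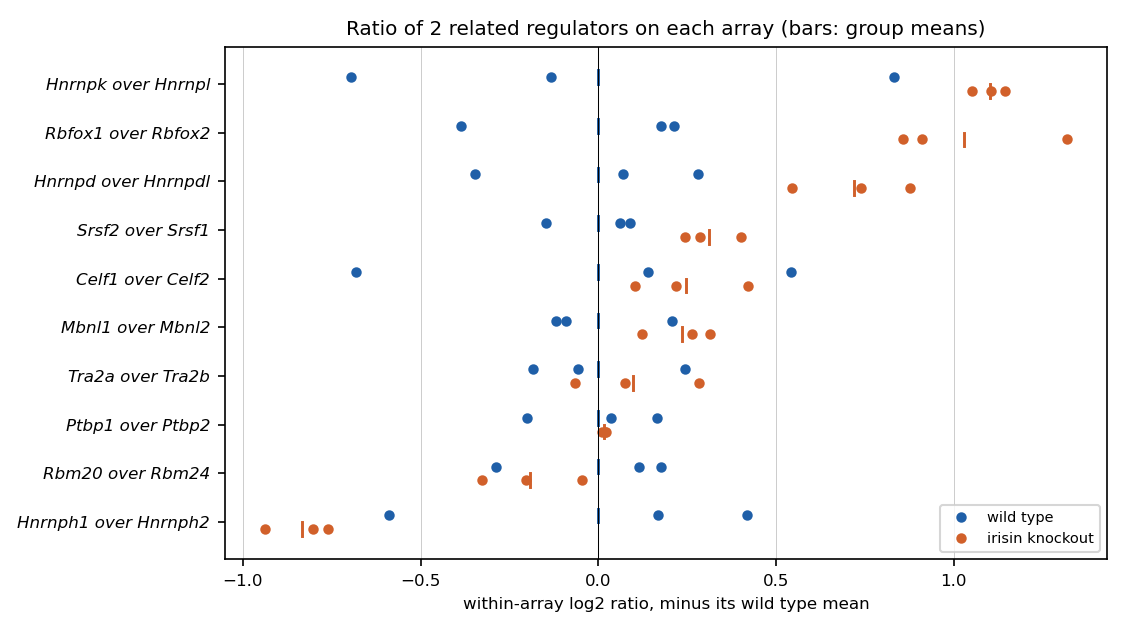
Within-array log2 ratio of 10 pairs of related regulators, each shown after subtracting its wild type mean (horizontal axis, log2), with 1 point per array. Wild type is in blue and irisin knockout in orange, with bars at group means in the same colours. The wild type bars lie at 0, where a thin black line is also drawn. Rbfox1 over Rbfox2 lies 1.03 higher in the knockout and Hnrnph1 over Hnrnph2 lower by 0.83 (a shift of -0.83), without overlap, whereas Ptbp1 over Ptbp2 differs by 0.02.

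The factors that modify and import SR proteins also included genes called in either direction. Of 12 such genes 4 fell and 2 rose. The 33.3% called lower compares with 10.9% to 11.7% of all genes in the equal groups by level that hold them. The 16.7% called higher is less than the 20.7% to 34.5% of all genes in those groups. Clk1, a kinase that phosphorylates SR proteins in the nucleus, read 7.48, 8.38 and 8.16 in wild type and 6.74, 6.22 and 6.59 in the knockout, 2.81-fold lower (SE 0.24, limma adjusted p = 0.00440). Prpf4b, a kinase of the spliceosome, fell 1.96-fold, and the Clk family members Clk4 and Clk2 fell 1.87-fold and 1.51-fold. Dyrk1a, a related kinase, rose 1.83-fold, and Tnpo3 (transportin-SR), which carries phosphorylated SR proteins into the nucleus, rose 1.85-fold from 6.31, 5.88 and 5.93 to 6.87, 7.02 and 6.91 (adjusted p = 0.00462). The cytoplasmic SR kinases Srpk1, Srpk2 and Srpk3 overlapped between groups, with differences of 0.02, 0.12 and 0.13. Genes of this list that fell numbered 2 without wild type replicate 2 or 3 or any 1 knockout array, and 5 without wild type replicate 1.

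In the early spliceosome 7 of 20 genes of the U1 and U2 particles and of branch site recognition fell and Sf3a2 rose, with a median difference of -0.35. That is 35% called lower, against 6.18% of all genes and 11.1% of the brightest 10%. The 5% called higher is less than the 10.4% of all genes and the 34.5% of the brightest 10%. Sf3b4, 1 of the 7, was dim, between 0.38 and 1.29 on every array, where a value cannot be told from background. Snrnp70, the U1 protein that SR proteins contact, read 6.87, 7.41 and 7.27 in wild type and 5.80, 5.65 and 5.86 in the knockout (2.66-fold lower, limma adjusted p = 0.00116). Luc7l2, a U1-associated factor, fell 2.00-fold, and Sf3b1, the branch site protein of U2, read 7.23, 7.21 and 7.21 against 6.36, 6.42 and 6.56 (1.71-fold lower, adjusted p = 0.00308). Sf3a2 rose 1.68-fold (adjusted p = 0.00305). Counts of falls ran from 5 to 8 over the other settings. Of 20 genes of the tri-snRNP, the Prp19 complex and the catalytic steps, Prpf4, Prpf19, Aqr and Prpf8 rose and Dhx16 fell. The 20% called higher lies within the 13.4% to 34.5% of all genes in the equal groups by level that hold them. The 5% called lower compares with 6.18% of all genes and is less than the 9.97% to 11.7% in those groups. Prpf19, the ubiquitin ligase of its complex, read 6.65, 6.86 and 6.54 against 7.26, 7.69 and 7.51 (1.74-fold higher, adjusted p = 0.00838), and Prpf4 rose 1.61-fold. In this list 2 rose and 3 fell after quantile or loess normalization. Leaving out wild type array 3, knockout array 2 or knockout array 3 also gave 2 rises, and Dhx16 lost its call in every fit without 1 array other than wild type replicate 1. Of 13 Sm and LSm genes only Lsm3 fell (2.03-fold, adjusted p = 0.00299), and 3 fell after quantile or loess normalization. Of 10 genes of the exon junction complex and nonsense-mediated decay only Smg1, a kinase of that decay, fell (6.56, 7.23 and 7.07 against 5.69, 5.49 and 6.06, adjusted p = 0.00617). Called lower were 7.69% of the Sm and LSm genes and 10% of the exon junction and decay genes, near the 6.18% of all genes. The lists were chosen with earlier results of these data known.

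**Figure D5:**
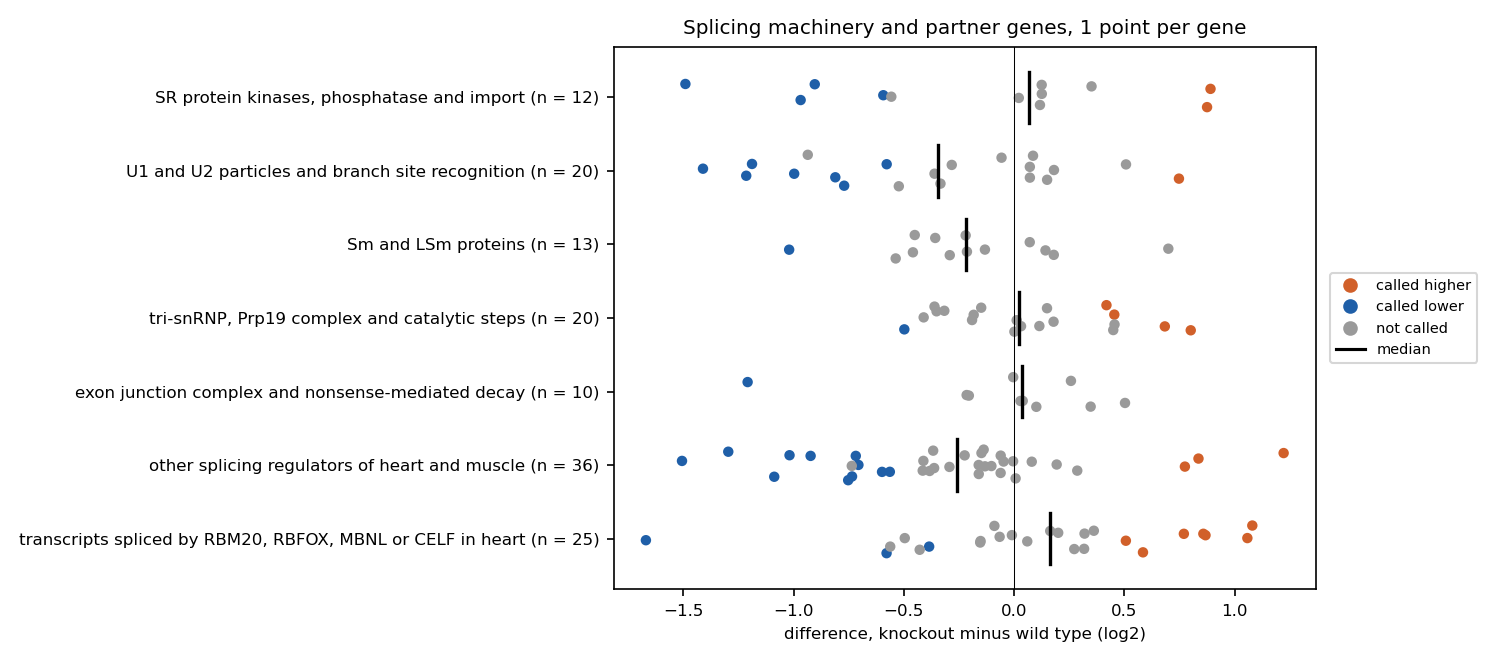
Difference between knockout and wild type (horizontal axis, log2) for 7 lists of splicing genes, 1 point per gene, in blue where called lower, orange where called higher and grey elsewhere, with a black line at each list's median. The list of the U1 and U2 particles has its median at -0.35 with 7 of 20 genes called lower, and the tri-snRNP list has its median at 0.02.

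Of 36 other RNA-binding splicing regulators measured, 11 fell and 3 rose, with a median difference of -0.26. Called lower were 30.6% and higher 8.33%, against 6.18% and 10.4% of all genes and 11.1% and 34.5% of the brightest 10%. Rbm5, a regulator of exon choice, read 6.34, 6.79 and 6.61 in wild type and 5.57, 5.48 and 5.63 in the knockout (2.03-fold lower, limma adjusted p = 0.00247). Ewsr1, of the FET family, read 8.07, 8.19 and 8.28 against 7.31, 7.09 and 7.38 (1.90-fold lower, adjusted p = 0.00252). The groups of both genes did not overlap. Falls in this list numbered 8 to 16 over the other settings.

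The heart transcripts whose exons RBM20, RBFOX, MBNL or CELF proteins are known to control were measured only as whole genes, so the array values do not show exon use. Of 25 such genes 7 rose and 3 fell, with a median of 0.16. The 28% called higher is below the 34.5% of all genes in the brightest 10%, where 22 of the 25 lie. The median turned to -0.06 after quantile and -0.20 after loess normalization. Those that rose include Sh3kbp1 (1.83-fold), the transcription factors Mef2a (1.71-fold) and Mef2d (1.81-fold) and the triadin gene Trdn. Mef2a read 8.67, 8.41 and 8.55 in wild type and 9.32, 9.35 and 9.27 in the knockout (limma adjusted p = 0.00360). Ttn, the main RBM20 target, read 10.60, 10.76 and 10.66 against 9.85, 9.92 and 10.57. Knockout replicate 3 lay just below wild type and the other knockout arrays further down, and the gene was not called (-0.56, adjusted p = 0.0855). The calcium/calmodulin kinase gene Camk2d, another RBM20 target, read 6.75, 6.57 and 6.43 against 7.11, 7.25 and 7.15 and rose 1.50-fold (adjusted p = 0.0153). Both Ttn and Camk2d were chosen for mention after their values were seen. Rises numbered 4 without knockout replicate 2 and 3 after loess normalization. Leaving out wild type array 3 or knockout array 1 gave 1 fall, and there were 0 without knockout replicate 2 (3 at an unadjusted p under 0.05 in limma).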

How the data were processed

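The deposited values are the authors' log2 expression. Per the submitters' processing notes these are RMA summaries, with affy 1.61.0 and R 3.6.0 named. How RMA was set and which probe set definition it used are steps not given in the sources used here. A log2 scale was inferred from the range of 0.093 to 12.96. No detection calls were used, so dim values are not told from background, and probes shared with close paralogues or processed pseudogenes cannot be resolved. Precision is limited by 3 arrays per group. Symbols came from the platform annotation for 23185 of 25206 rows, and 2021 rows without one were not tested.

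Groups came from sample titles. Every gene was tested with limma 3.58.1 in R 4.3.3 (lmFit and eBayes with genotype as sole term), two-sided, adjusting by Benjamini-Hochberg over 23185 genes, at a threshold of 0.05. The code was tested on simulated data. Alternatives were quantile, median and cyclic loess scaling, filters on the dimmest 30% or 50% of genes, all rows, trend, robust and weighted fits, the replicate block, thresholds of 0.01 and 0.1, and arrays left out. Named are all members called, all 11 heart and muscle regulators, the 2 uncalled Srsf and hnRNP genes of lowest p, and up to 4 called genes of each other list, the lowest in p; other genes were named after their values were seen. Members and lists were chosen with earlier results of these data known.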

Additional observations from a re-analysis of the deposited data

How the results depend on the processing

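Of the 21 genes called, Srsf9, Srsf11 and Hnrnpdl kept their call in all 17 other settings per gene, and none of the 21 changed direction in any of these; 5 kept it in all 6 fits without 1 array, those 3 with Tra2b and Qk, and 16 lost it in at least 1, where fewer arrays give a weaker test. Members called higher numbered 6, against 1 after quantile normalization, 0 after cyclic loess (limma), 3 with the replicate block, 3 without both arrays numbered 1, 1 at a threshold of 0.01 and 1 to 5 without 1 array. Members called lower numbered 15, against 9 after centring, 8 without both arrays numbered 1, 4 at a threshold of 0.01 and 6 to 13 without 1 array. The median difference of -0.16 was -0.35 after quantile normalization, -0.41 after cyclic loess, -0.061 after centring and -0.24 to -0.13 without 1 array; apart from what scaling does by construction, the cause was not tested. Centring moved the median of all genes by 0.10, from -0.05 to 0.06. Of the 21 genes not called, 9 changed sign under some scaling: Mbnl2 (adjusted p = 0.775 after quantile normalization and 0.505 after loess), Ptbp1 and Ptbp2 (0.886 and 0.937 after centring), Srsf2 (0.933 after loess), and, with turned differences from -0.21 to 0.063, Hnrnpab, Hnrnpa0 and Hnrnpf (below 0 after quantile or loess), Srsf1 (above 0 after centring) and Srsf12 (above 0 after all 3). The ratio of Ptbp1 to Ptbp2 turned to -0.023 after quantile normalization, -0.036 after loess and -0.084 without wild type replicate 2, and that of Celf1 to Celf2 ran from -0.093 without wild type replicate 3 to 0.52 without wild type replicate 2. The labels do not say whether a replicate number marks a pair. Deviations of same-numbered arrays correlated at 0.09, 0.05 and 0.07 across genes, and those of other pairs at -0.12 to 0.055. Wild type replicate 2 correlated best with knockout replicate 3. Correlations this weak cannot settle whether the numbers mark a shared litter or day. With the replicate number as a block 12 members were called lower, all among the 15.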

Other observations

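The core proteins of paraspeckles, nuclear bodies that hold edited and retained RNA, did not move together. Sfpq gave 6.67, 7.22 and 7.15 on wild type arrays 1, 2 and 3 and 5.66, 5.30 and 5.56 on the knockout arrays, 2.84-fold lower (limma adjusted p = 0.00123). Pspc1 read 5.09, 5.27 and 5.58 against 4.05, 3.78 and 4.22, 2.46-fold lower (adjusted p = 0.00197). Their binding partner Nono, which shares the same domain layout, read 4.98, 4.39 and 4.16 against 5.79, 5.68 and 5.73, 2.33-fold higher (adjusted p = 0.00475) and the largest rise among the 36 other splicing regulators measured. Nono was chosen for mention after its values were seen.

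Of 13 listed small nuclear RNAs, 5 had a row, and Rnu11 and Rnu3a were called lower (40%, against 6.18% of all genes). Rnu11, the U11 RNA of the minor spliceosome, read 8.70, 9.53 and 9.47 in wild type and 6.78, 6.52 and 6.77 in the knockout. Rnu3a, in that list by name although U3 acts in ribosomal RNA processing, read 3.88, 4.29 and 3.84 against 1.78, 2.05 and 2.43 (limma adjusted p = 0.000737), dim enough in the knockout that no fold is given. Rn7sk, which holds the elongation factor P-TEFb inactive, overlapped between groups at 11.86, 12.96 and 12.80 against 12.56, 12.02 and 12.26. Rnu5g and Rnu7 were dim, at 0.65 to 1.36 on every array.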
